A study of Mus musculus with 10 samples.

Results

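The MYC and MAX network was followed through 8 of its genes, Myc, Mycn, Max, Mxd1, Mxd3, Mxd4, Mnt and Mlx, in primary T cell lymphomas of mice. Each gene was read from the probe set whose single symbol it is, and 1 probe set was found for each of the 8. All 8 were among the 12670 genes kept by a filter on dim probe sets, out of 19937 genes measured. Total RNA came from mediastinal lymphomas that arose spontaneously in 10 NPM-ALK transgenic mice on a C57BL/6 background, at an age of 4 to 5 months, with 1 Affymetrix array per lymphoma. All 10 mice carried NPM-ALK, the oncogenic kinase fusion of anaplastic large cell lymphoma. The label WT marks 5 of them, called WASP-intact here, and WASP -/- the 5 WASP-deficient mice, which came from a cross to mice lacking WASP, an actin regulator of blood cells encoded by Was. By the sources used here the WASP-deficient mice could be female or male. They give no sex for a single animal, so sex was read from Xist and Kdm5d below, and they do not give the promoter that drives the transgene. Levels are log2 intensities, differences between genotypes are WASP-deficient minus WASP-intact, and no tissue without lymphoma was analysed here.

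MYC and MYCN are transcription factors of the basic helix-loop-helix leucine zipper class that bind DNA only when paired with MAX, chiefly at the E-box CACGTG, and promote growth, ribosome production and cell division. MXD1, MXD3, MXD4 and MNT also pair with MAX, occupy E-boxes in place of MYC and recruit the SIN3 corepressor with its histone deacetylases. MLX is a MAX-like partner that joins the network to the glucose sensors MLXIP and MLXIPL. In thymocytes and T cell tumours Myc is a well known target of NOTCH1 and a driver of proliferation.

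Proteins of this network bind the E-box, so the sequence before the start sites of these genes was searched for it. RefSeq promoter sequences (GRCm38.p6) matched 7 of the 8 genes, all but Myc, with 1 promoter each, and the 250 bases before the start were read. CACGTG, which reads the same on both strands, occurred in 3 of the 7, those of Mxd4, Mnt and Mlx, against 6.86% of the 27025 genes with a promoter sequence. TTCNNNGAA, the site of STAT factors and also the same on both strands, occurred in 0 of the 7 and in 8.13% of all genes. No overlap of these motifs was therefore possible among the 7. The 3 promoters with an E-box are shown with CACGTG in capitals, and those of Max and Mxd1 because both genes shared with Mxd4 the array pattern described further on. The windows are chr5:34187711-34187960 on the minus strand for Mxd4, chr11:74830674-74830923 on the plus strand for Mnt, chr11:101087040-101087289 on the plus strand for Mlx, chr12:76962249-76962498 on the minus strand for Max and chr6:86669160-86669409 on the minus strand for Mxd1. Each is written 5′ to 3′ and ends at the base before the start.
Mxd4: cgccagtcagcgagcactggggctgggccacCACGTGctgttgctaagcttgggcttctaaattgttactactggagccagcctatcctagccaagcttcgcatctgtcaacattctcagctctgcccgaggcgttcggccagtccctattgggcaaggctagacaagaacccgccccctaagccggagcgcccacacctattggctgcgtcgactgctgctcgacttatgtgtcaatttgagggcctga
Mnt: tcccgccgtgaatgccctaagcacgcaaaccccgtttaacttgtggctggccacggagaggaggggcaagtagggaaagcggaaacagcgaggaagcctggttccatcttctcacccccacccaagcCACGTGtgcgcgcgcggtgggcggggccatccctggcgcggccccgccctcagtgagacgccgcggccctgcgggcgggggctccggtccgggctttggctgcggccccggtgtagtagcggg
Mlx: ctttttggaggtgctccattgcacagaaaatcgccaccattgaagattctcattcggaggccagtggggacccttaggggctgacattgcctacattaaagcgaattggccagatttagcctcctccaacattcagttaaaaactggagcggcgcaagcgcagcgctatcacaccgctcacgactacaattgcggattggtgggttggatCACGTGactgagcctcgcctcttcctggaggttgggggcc
Max: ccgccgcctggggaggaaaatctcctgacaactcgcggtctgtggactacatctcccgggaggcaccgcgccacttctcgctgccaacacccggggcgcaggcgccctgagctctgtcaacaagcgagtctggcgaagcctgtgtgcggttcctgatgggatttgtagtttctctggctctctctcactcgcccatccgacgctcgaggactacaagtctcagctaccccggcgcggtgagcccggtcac
Mxd1: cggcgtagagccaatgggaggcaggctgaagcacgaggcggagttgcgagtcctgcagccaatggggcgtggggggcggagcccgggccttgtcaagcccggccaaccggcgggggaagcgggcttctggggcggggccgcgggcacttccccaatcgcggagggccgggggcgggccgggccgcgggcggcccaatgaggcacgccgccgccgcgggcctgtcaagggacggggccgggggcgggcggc
The first base of CACGTG lay 219 bases before the start of Mxd4, 123 before that of Mnt and 40 before that of Mlx. GC content was 58.0% in the Mxd4 window, 70.0% in Mnt, 53.6% in Mlx, 63.6% in Max and 78.4% in Mxd1. A match is a run of letters in this window and not a measured binding site.

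Several features of the arrays bear on these results. Was matched the genotype label on 10 of 10 arrays, at 9.11 to 9.34 with WASP intact and 7.92 to 8.20 with WASP deficient. Linear medians of the arrays ran from 116.7 to 122.7, but quantile normalization had already drawn them together. The number of arrays limits the precision. Of the T cell markers, Cd3e was bright at 12.06 to 12.59 and Thy1 at 11.86 to 12.31, whereas Cd5 at 6.57 to 7.38 and Cd6 at 6.62 to 7.75 lay close to the filter at 6.35 and Cd28 ran from 6.14 to 11.24. Of the immature thymocyte markers, Rag1 was at 11.12 to 12.13 and Dntt at 11.17 to 12.23, while Rag2 ran from 5.51 to 9.94 and Il7r from 6.27 to 10.98. Cd2, a T cell adhesion receptor, divided the arrays at the stated level of log2 9. It was at 11.18 to 11.52 on 3 arrays, WASP-intact 4 and 5 and WASP-deficient 1, called Cd2-high here, and at 6.10 to 6.90 on the other 7, called Cd2-low. These sets come from measured levels and are no groups of the study, so comparisons between them are descriptions without a test. Xist, transcribed from the inactive X chromosome of female cells, was at 11.52 to 11.90 on WASP-intact arrays 1, 2, 4 and 5 and at 4.40 to 5.58 on the other 6. Kdm5d, a Y-linked gene, was at 4.61 to 5.51 on those WASP-intact arrays and at 8.20 to 9.19 on the other 6. By these genes every WASP-deficient array had the male pattern, and sex and genotype went together on all but WASP-intact array 3.

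None of the 8 network genes passed the test of genotype (limma, Benjamini-Hochberg adjusted p = 0.999 for each), against 0.00789% of all 12670 genes, which was Was alone. At an unadjusted p under 0.05 the count was also 0 of 8, with 2.89% of all genes. Values were higher in WASP-deficient lymphomas for 4 genes and lower for 4, and the median absolute log2 difference was 0.10 over the 8 and 0.09 over all genes. The 5 arrays of one genotype overlapped those of the other for each of the 8, where 0.568% of all genes did not overlap.

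Myc, the principal growth-promoting factor of the network, was at 11.74, 11.67, 11.80, 11.41 and 11.45 on WASP-intact arrays 1 to 5 and at 11.42, 11.86, 11.71, 11.17 and 11.79 on WASP-deficient arrays 1 to 5. The lowest level of all was that of WASP-deficient array 4, and the next 3 were those of the Cd2-high arrays. Means were 11.61 ± 0.17 and 11.59 ± 0.29 (SD, n = 5 each), and the log2 difference was -0.02 (SE 0.14, 95% confidence interval -0.34 to 0.30, limma adjusted p = 0.999). Mycn, its relative best known from neuroblastoma, was at 6.86, 6.74, 7.06, 7.07 and 6.98 with WASP intact and at 6.82, 6.72, 6.50, 6.99 and 7.20 with WASP deficient. Both the lowest and the highest Mycn level were on WASP-deficient arrays, 3 and 5, and the difference was -0.10 (SE 0.13, interval -0.39 to 0.20). By mean level the Mycn probe set ranked at the 49.7th percentile, close to the filter at the 40th, and that of Myc at the 97.7th.

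Max, the partner that MYC and MXD proteins need to bind DNA, was at 10.73, 10.76, 10.72, 10.41 and 10.34 on WASP-intact arrays 1 to 5 and at 10.33, 10.83, 10.75, 10.88 and 10.73 on WASP-deficient arrays 1 to 5. In each genotype the low levels were those of the Cd2-high arrays. The difference between genotypes was 0.11 (SE 0.13, interval -0.17 to 0.40), and with the Cd2 set as a covariate it was 0.03 (SE 0.07).

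Among the genes whose products repress at E-boxes, Mxd1, linked to differentiation and exit from the cell cycle, was at 9.24, 9.17, 9.28, 8.75 and 8.76 with WASP intact and at 8.96, 9.09, 9.18, 9.35 and 9.43 with WASP deficient. The 3 lowest levels were those of the Cd2-high arrays, and the genotype difference was 0.16 (SE 0.14, interval -0.15 to 0.48). Mxd4 was at 9.94, 9.92, 9.71, 9.10 and 9.10 with WASP intact and at 9.01, 9.74, 9.89, 9.79 and 10.09 with WASP deficient. It was low on the same 3 arrays, which left the widest interval of the 8 genes, -0.38 to 0.68 around a difference of 0.15 (SE 0.24). With the Cd2 set as a covariate the difference was -0.01 (SE 0.09).

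Mxd3, the family member known to be transcribed in S phase, was at 8.31, 8.11, 8.19, 8.34 and 8.35 with WASP intact and at 8.67, 8.61, 7.97, 8.01 and 7.72 with WASP deficient. The WASP-deficient arrays held both its 2 highest and its 3 lowest levels, with an SD of 0.42 against 0.11, and the difference was -0.06 (SE 0.18, interval -0.46 to 0.33). Mnt, the widely expressed antagonist of MYC, was at 8.02, 8.15, 7.93, 8.08 and 8.10 with WASP intact and at 8.01, 8.03, 7.81, 7.73 and 8.03 with WASP deficient. It had the smallest p of the 8 (limma adjusted p = 0.999), at -0.13 (SE 0.09, interval -0.32 to 0.06). Mlx was at 10.38, 10.34, 10.03, 10.12 and 10.23 with WASP intact and at 10.32, 10.44, 10.17, 10.12 and 10.25 with WASP deficient, with a difference of 0.04 (SE 0.09, interval -0.17 to 0.25). Mnt and Mlx varied least, over ranges of 0.42 and 0.41 against a median range of 0.65 for all genes.

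**Figure D1:**
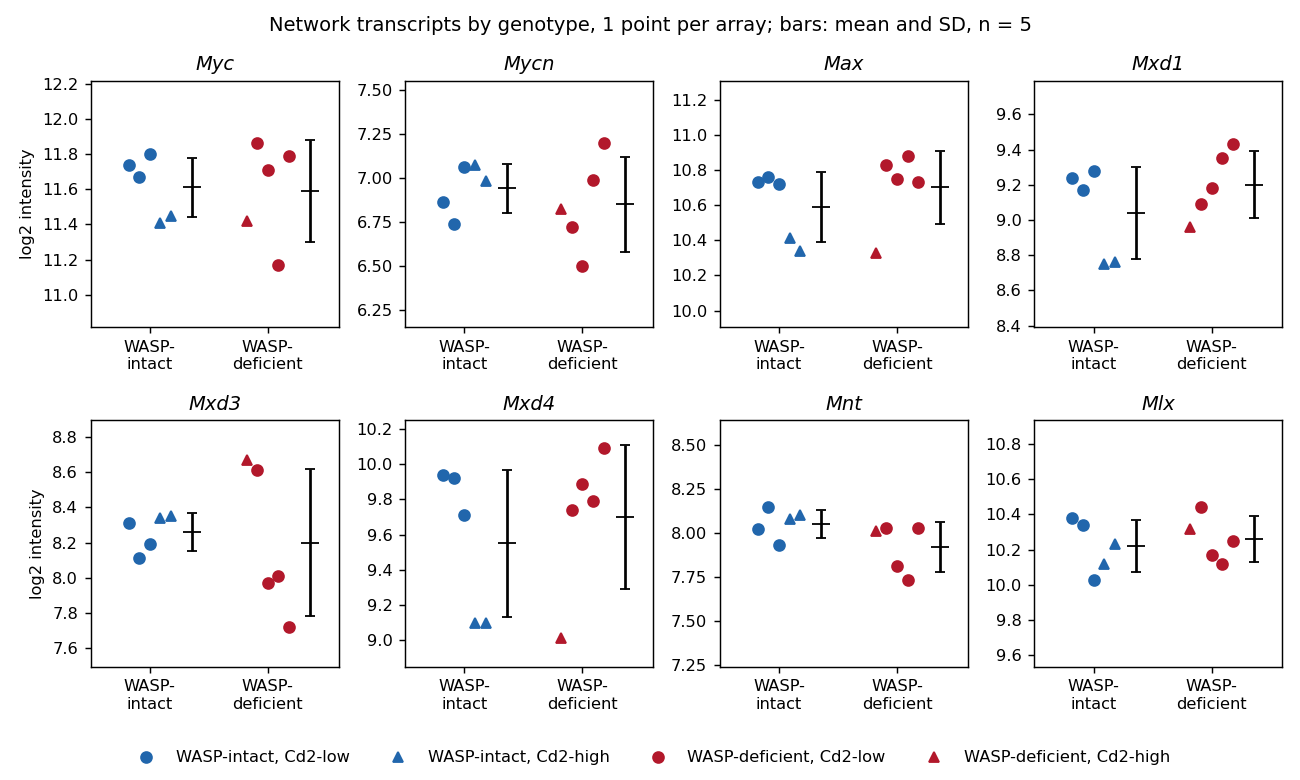
Log2 intensity of the 8 network genes on each of the 10 arrays, WASP-intact in blue and WASP-deficient in red, with triangles for the Cd2-high arrays; black bars give the mean and SD of each genotype, n = 5. Each panel spans the same number of log2 units on its own axis. The genotypes overlap in all 8 panels, and the triangles lie below all circles for Max, Mxd1 and Mxd4.

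**Figure D2:**
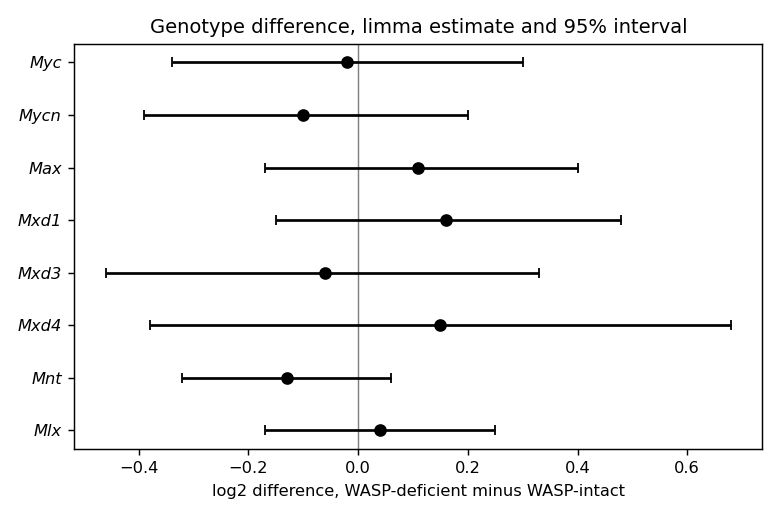
Log2 difference between WASP-deficient and WASP-intact lymphomas for each network gene, with the limma estimate as a point and its 95% confidence interval as a bar. Estimates lie between -0.13 and 0.16 and every interval takes in 0.

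Other cell types moved with genotype to some degree, and sex did so on all but WASP-intact array 3. The part of other cell types in these differences was not tested, and that of sex only by the covariate fit given below. All 8 tested epithelial markers had higher values in WASP-deficient lymphomas, with list scores of -0.81 to 0.09 on WASP-intact and -0.03 to 0.82 on WASP-deficient arrays. A list score is the mean of the log2 levels of its genes, each centred on its own mean over the 10 arrays. All 6 tested fibroblast markers had lower values, with scores of -0.60 to 0.93 and -0.71 to 0.33. Of 10 macrophage markers 9 had higher values (-0.27 to 0.12 and -0.34 to 0.42), and of 6 adipocyte markers 5 had lower ones (-0.12 to 0.62 and -0.48 to 0.03). None of the markers of these 4 lists passed the limma test after adjustment. At an unadjusted limma p under 0.05 the counts were 5 of 8 epithelial and 3 of 6 adipocyte markers. They were 1 of 6 for fibroblast and 1 of 10 for macrophage markers, against 2.89% of all genes. All 6 tested muscle markers had lower values, with scores of -0.30 to 1.53 and -0.34 to -0.16, and 0 of 6 had an unadjusted limma p under 0.05. The 8 neutrophil markers were all below the filter. With the Xist level as a covariate, Mxd1 differed by -0.06 (SE 0.22), Max by 0.01 (SE 0.21), Mlx by 0.20 (SE 0.15) and Myc by -0.17 (SE 0.24). None of the 8 passed, but no gene at all passed in that fit, Was included (limma adjusted p = 0.376). That fit therefore does not set the 8 apart.

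Within the 7 Cd2-low arrays, 3 WASP-intact and 4 WASP-deficient, none of the 8 genes passed either (limma adjusted p = 0.999 for each). The genotypes overlapped for all 8, where 4.06% of all genes did not overlap. Mxd4 lay at 9.71 to 9.94 with WASP intact and at 9.74 to 10.09 with WASP deficient, a difference of 0.02 (SE 0.12). Max lay at 10.72 to 10.76 and at 10.73 to 10.88, a difference of 0.06 (SE 0.09), and Mxd1 at 9.17 to 9.28 and 9.09 to 9.43, a difference of 0.03 (SE 0.11). Without the Cd2-high arrays all 3 were thus nearer to 0 than the 0.11 to 0.16 over all 10 arrays. These 3 genes were named for being low on the Cd2-high arrays, 2 WASP-intact and 1 WASP-deficient. The shift therefore follows from that choice and is no separate result. Myc lay at 11.67 to 11.80 and 11.17 to 11.86, with a difference of -0.10 (SE 0.17).

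Across the Cd2 sets, Max, Mxd1 and Mxd4 were lower on every Cd2-high array than on any Cd2-low array. These were 3 of 8 network genes, 37.5%, where 16.1% of all genes were lower without overlap, 14.4% higher and 30.5% either. None of the 8 was higher without overlap. A large share of the whole transcriptome therefore separated the same arrays, and the count in either direction is near that background.

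Mxd4 lay at 9.01 to 9.10 on the Cd2-high and at 9.71 to 10.09 on the Cd2-low arrays. Its median differed by -0.79, or 0.579 of the Cd2-low level on the linear scale, with 0.61 between the nearest arrays of the sets. That difference was larger in size than those of 88.9% of all genes. Mxd1 lay at 8.75 to 8.96 against 9.09 to 9.43, a difference of medians of -0.48 with 0.13 between the nearest arrays. Max lay at 10.33 to 10.41 against 10.72 to 10.88, a difference of -0.41 with 0.31 between the nearest arrays. The Cd2-low arrays spread little for Max, with an SD of 0.06. The pattern was present in both genotypes, since the Cd2-high arrays were 2 WASP-intact and 1 WASP-deficient.

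Myc lay at 11.41 to 11.45 on the Cd2-high arrays and at 11.17 to 11.86 on the Cd2-low arrays, with a difference of medians of -0.32. It overlapped through a single array, WASP-deficient 4. Without that array Myc too was lower with no overlap, which made 4 of 8 network genes, against 33.6% of all genes in either direction. Mxd3 had a higher median on the Cd2-high arrays, by 0.24, and overlapped through WASP-deficient array 2 alone, without which its levels did not overlap (4 of 8 network genes, against 32.6% of all genes). Mycn differed by 0.12, Mnt by 0.06 and Mlx by -0.02, all with overlap. The median over all genes was -0.016.

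**Figure D3:**
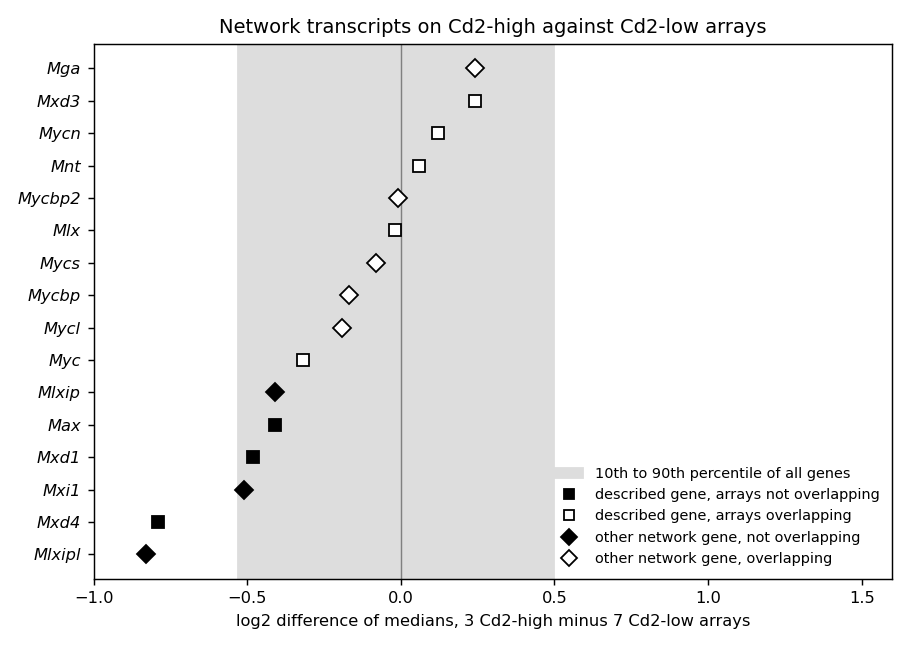
Log2 difference of medians between the 3 Cd2-high and the 7 Cd2-low arrays for the 8 described genes (squares) and 8 other network genes (diamonds), filled where the arrays of the sets do not overlap; the grey band runs from the 10th to the 90th percentile of all 12670 genes, -0.53 to 0.50. Mxd4 and Mlxipl lie outside the band, and the filled points are all below 0.

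Fibroblast marker scores separated the same arrays, at 0.33 to 0.93 on the Cd2-high and -0.71 to -0.02 on the Cd2-low arrays. Of the 6 fibroblast markers 3 were higher without overlap, where 14.4% of all genes were. Scores of the other marker lists overlapped, at -0.07 to 0.62 and -0.48 to 0.15 for adipocytes (0 of 6 markers without overlap), -0.08 to 0.25 and -0.34 to 0.42 for macrophages (1 of 10, higher) and -0.81 to 0.16 and -0.62 to 0.82 for epithelium (2 of 8, lower). Muscle scores were -0.23 to 1.53 and -0.34 to -0.12 (1 of 6, higher), and the 1.53 was that of WASP-intact array 4 alone. Immature thymocyte scores were 0.06 to 0.44 and -0.41 to 0.20, with 4 of 9 markers higher and 1 lower, or 55.6% without overlap against 30.5% of all genes. T cell scores were -0.12 to 0.65 and -0.36 to 0.34, with 3 of 14 markers higher and 2 lower, or 35.7%. Their part in the lower Max, Mxd1 and Mxd4 levels was not tested. In a piece of tissue, fewer cells of a type and less RNA per cell cannot be told apart. Among T cell genes, Cd3d, a chain of the T cell receptor complex, was at 5.26 to 6.47 on the Cd2-high and 8.96 to 10.08 on the Cd2-low arrays, while Cd3e, another chain, overlapped at 12.29 to 12.59 and 12.06 to 12.38.

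Of 9 other network genes on the list 8 were tested, and none passed the test of genotype (6 with higher and 2 with lower values, median 0.03, limma adjusted p = 0.999 for each). Mga, which pairs with MAX, had the smallest p, at -0.21 (SE 0.08), followed by the ubiquitin ligase gene Mycbp2 at -0.16 (SE 0.09) and Mlxipl at 0.21 (SE 0.34). On the Cd2-high arrays 3 of the 8, or 37.5%, were lower without overlap and 0 higher, against 16.1% of all genes lower and 30.5% in either direction, so that count too is near the background. The 3 were Mxi1, the remaining MXD family gene, at 8.71 to 8.87 against 8.94 to 9.82, Mlxip at 9.56 to 9.77 against 9.81 to 10.17, and Mlxipl at 6.52 to 7.24 against 7.34 to 8.34. Mga overlapped with a difference of medians of 0.24 and Mycbp2 with -0.01.

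Transcripts of MYC and MXD cofactors, of MYC turnover genes and of regulators of Myc gave no call between genotypes. None of 17 cofactor genes passed (8 higher and 9 lower values, median -0.01), nor of 16 genes of MYC protein turnover (5 and 11, median -0.04), nor of 16 regulators of Myc transcription (4 and 12, median -0.12, limma adjusted p = 0.999 for the genes named here). The smallest p in these lists belonged to Notch1 at -0.20 (SE 0.11), Ikzf1, encoding the lymphoid factor Ikaros, at -0.14 (SE 0.08), and Runx1 at -0.26 (SE 0.17). Trrap, a scaffold of MYC-bound acetyltransferases, was at -0.11 (SE 0.09), Cdk9, the elongation kinase, at 0.06, and Sin3a at -0.09. Bin1, which binds MYC, was at -0.36 (SE 0.25), Cip2a, which protects MYC from dephosphorylation, at -0.27 (SE 0.24), and the ubiquitin ligase gene Huwe1 at -0.09 (SE 0.08).

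Across the Cd2 sets 7 of the 17 cofactor genes did not overlap, 2 higher and 5 lower on Cd2-high arrays, or 41.2%, against 30.5% of all genes. Sin3b, a scaffold of the corepressor used by MXD proteins, was higher, at 9.57 to 9.72 against 8.65 to 9.07. Hdac1, a deacetylase of that corepressor, was lower, at 11.23 to 11.63 against 11.74 to 12.06, and so was the acetyltransferase gene Kat2a, at 9.94 to 10.14 against 10.50 to 10.68. In the turnover list 5 of 16 genes were lower and 0 higher, or 31.2%, a share like that of all genes, and the deubiquitinase gene Usp37 was among them with a difference of medians of -0.36. Of the regulators 2 of 16 were higher and 3 lower, again 31.2%, with Stat5a at -0.56 and Notch1 overlapping at -0.01. Bcl6, a repressor of lymphoid differentiation genes, differed by 0.93 and Prdm1 by -0.56, both with overlap.

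Genes reported as MYC targets were also not called between genotypes. None of 49 induced targets passed (25 higher and 24 lower values, median 0.00), and none of 13 repressed targets did (8 and 5, median 0.02). At an unadjusted limma p under 0.05 the count was 2 of the 49 induced targets, with 2.89% of all genes. The smallest p among induced targets were those of Rrs1, a ribosome assembly factor, at -0.35 (SE 0.12), Tfrc, the transferrin receptor, at -0.48 (SE 0.18), and Ccnd2, encoding cyclin D2, at 1.13 (SE 0.53), each with a limma adjusted p of 0.999. Among repressed targets they were those of Ndrg1 at 0.68 (SE 0.44), the cell cycle inhibitor gene Cdkn1c at 0.55 (SE 0.38) and the antiproliferative gene Tob1 at 0.50 (SE 0.49). Of 6 MLX targets 2 had higher and 4 lower values (median -0.05), with Txnip, a brake on glucose uptake, at -0.23 (SE 0.12), Tkfc at -0.11 and Arrdc2 at 0.15.

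On the Cd2-high arrays 10 of the 49 induced targets were lower without overlap and 1 was higher, 22.4% in either direction against 30.5% of all genes. Cad, the first enzyme of pyrimidine synthesis, was at 9.23 to 9.31 against 10.06 to 10.24. Tcof1, which serves ribosomal RNA synthesis, was at 9.57 to 9.63 against 9.82 to 10.39, and Ccnd2 at 7.86 to 8.44 against 8.64 to 11.51. Of 13 repressed targets 2 were higher and 2 lower, or 30.8%, and the lower ones included Tob1, at 7.05 to 7.71 against 8.26 to 9.85. Among MLX targets 1 of 6 did not overlap, which was Arrdc2, at 7.59 to 7.71 against 7.94 to 8.89, while Hk2 and Arrdc4 overlapped at 0.59 and 0.48. The induced target scores, -0.14, -0.09 and -0.07 on the Cd2-high arrays, lay below those of the other 7, at -0.03 to 0.16.

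Cell cycle genes gave no call between genotypes, with 0 of 19 S phase genes (13 higher and 6 lower values, median 0.03) and 0 of 17 G2 and M phase genes (2 and 15, median -0.06). Mcm3, Gins2 and Mcm2, parts of the replicative helicase, had the smallest p of the former list, at 0.17, 0.20 and 0.22. Cenpf, Mki67 and Top2a led the latter at -0.31, -0.20 and -0.18 (limma adjusted p = 0.999 for all 6). On the Cd2-high arrays 3 of 19 S phase genes were lower without overlap, or 15.8% against 16.1% of all genes, which were Uhrf1 by -0.83, Cdc6 by -0.59 and Mcm2 by -0.50. Of the G2 and M phase genes 0 of 17 separated the sets, and the largest differences of medians were those of Cenpe, 0.45, Nusap1, 0.40, and Top2a, 0.26.

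Mxd3 followed the mitotic genes across lymphomas. Over the 7 Cd2-low arrays its level correlated with the G2 and M phase score at r = 0.96 (Pearson) and rho = 0.96 (Spearman), a description over arrays that share one normalization, and 0.166% of 12653 genes outside the list did so at least as closely. Without WASP-deficient arrays 2 and 5, the farthest from the median in Mxd3, r was 0.91 over 5 arrays. WASP-deficient array 5 had the lowest Mxd3 level, 7.72, and the lowest score, -0.44. WASP-deficient array 2 had 8.61 and a score of 0.25, and WASP-deficient array 1, a Cd2-high array, had the highest of both at 8.67 and 0.27. With the score of induced MYC targets Mxd3 gave r = 0.94 (rho = 0.86, and 0.86 for r without those 2 arrays), which 0.404% of genes outside that list reached. These are 2 of 40 relations of the 8 genes with 5 list scores, picked as the closest. With the S phase score Mxd3 gave a weaker r of 0.78 (rho = 0.71), and r was 0.40 without WASP-deficient arrays 2 and 5.

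Dependence on single arrays differed between the induced and the repressed MYC targets. With the induced targets r was 0.57 (rho = 0.75, 7 Cd2-low arrays), a value reached by 15.8% of genes outside the list, with 0.50 to 0.76 when 1 array was left out. It was -0.03 without both WASP-deficient arrays 4 and 2, the farthest from the median in Myc. Those 2 arrays held the lowest and highest Myc levels, and the 5 left spanned only 11.67 to 11.80, so little variation in Myc remained. With the repressed targets r was -0.87 (rho = -0.54), as far from 0 for 1.49% of genes outside the list, and -0.08 without those 2 arrays. Without WASP-deficient array 4 alone r was -0.25, and without any other single array it was -0.92 to -0.85, so this relation rested on WASP-deficient array 4, which had the lowest Myc level, 11.17, and the highest repressed target score, 0.35. The other 9 arrays had scores of -0.21 to 0.09.

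**Figure D4:**
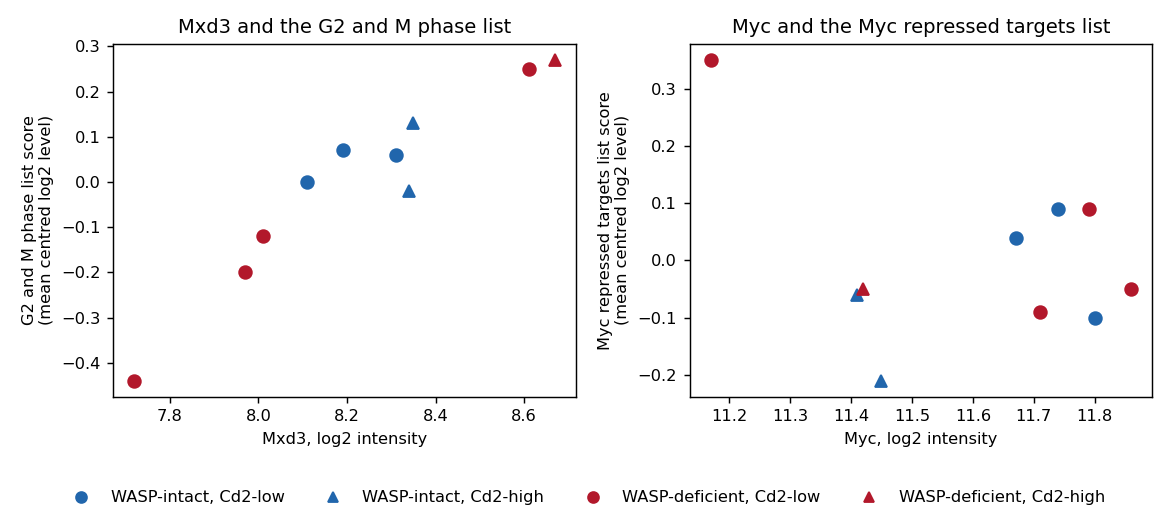
List score (mean centred log2 level) of the G2 and M phase genes against the log2 intensity of Mxd3, left, and of repressed MYC targets against that of Myc, right, with 1 point per array, WASP-intact in blue, WASP-deficient in red and triangles for Cd2-high arrays. Mxd3 and its score climb together from 7.72 and -0.44 to 8.67 and 0.27, whereas on the right the single point at 11.17 and 0.35 stands away from the other 9.

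Among the 28 pairs of network genes, those farthest from 0 over the 7 Cd2-low arrays were Mycn with Mxd1 (r = 0.83, rho = 0.86), Mxd1 with Mxd3 (r = -0.77, rho = -0.61) and Myc with Max (r = -0.69, rho = -0.46). Among the MXD genes, Mxd3 with Mxd4 also gave r = -0.66, whereas Mxd1 with Mxd4 gave r = 0.46. The pairs named first were picked as the farthest of 28 over 7 arrays, and none was tested. Over the same arrays the 3 genes closest in pattern to Mxd3 were Mybl2, encoding the cell cycle factor B-MYB (r = 0.979), the condensin gene Ncapg (0.978) and Ube2c, a ubiquitin-conjugating enzyme (0.978). Those closest to Myc were the RNA-binding protein gene Rbm10 (r = 0.997), the splicing kinase gene Srpk1 (0.993) and the transcription factor gene Gtf2i (0.991). Mxd4 was followed most closely by Cdh24 (r = 0.986), Snx6 and Ggt5, Mxd1 by Cxxc5 (0.982), Pacs1 and Hivep1, and Max by Igfbp2 (0.981), Palm and Cbr4. For Mycn they were Zfp971 (0.979), Blcap and Cbfa2t2, for Mnt Spout1 (0.979), Fryl and Nek8, and for Mlx Zfp661 (0.994), Tgs1 and Asb13. With 12670 genes and 7 arrays, every one of the 8 had 3 genes at r of 0.969 or more, so such values are no sign of a particular tie.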

How the data were processed

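The deposited values are probe set intensities on a linear scale, from 3.31 to 15587.9, which the authors made with RMA (background correction, quantile normalization and probe set summary), per the submitters' processing notes. No version, genome build or annotation of that step was stated, and quantile normalization hides array-wide differences in RNA amount. The log2 of each deposited intensity was taken. The platform's annotation table gave the gene names, 21640 of 34760 with 1 symbol. Symbols were checked by gene ID against RefSeq (GRCm38.p6), with 21553 matched and 0 changed. Probe sets with a mean under the 40th percentile (log2 6.35) were left out, and the brightest by mean stood for its gene.

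The genotype test was limma 3.58.1 (lmFit, eBayes, no covariate) in R 4.3.3 over all 12670 genes, with Benjamini-Hochberg adjustment and a threshold of 0.05. Its code was run on simulated independent noise with known changes, which lacks the Cd2 and sex differences of these arrays. Replicates are separate mice, 5 per genotype. The genes, lists and tests were chosen with earlier results of these data known. Named beside the 8 genes were, of each list that holds no markers, the 3 genes of smallest p and the 3 with the largest difference between the Cd2 sets, and the 3 genes closest to each of the 8 by Pearson r. Marker genes, Was, Cd2, Xist and Kdm5d were named as checks of the arrays. Alternatives concerned the filter, probe sets, a pseudocount of 16, scaling, the moderation, weights, covariates, arrays left out and the Cd2 level. Figures were drawn with matplotlib 3.10.9.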

Additional observations from a re-analysis of the deposited data

Results flagged for a closer look

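In each genotype the 5 arrays were examined for 1 that stood apart, for the 8 network genes and the 7 genes that check the arrays, with a limit of 0.71 on the gap to the nearest array over the whole range. For the network genes 1 of 16 sets of 5 arrays held such a value, where chance gives about 1 in 20. The check genes were chosen with their array patterns known, so their values are given as a description. Max was at 10.33 on WASP-deficient array 1, against 10.73 to 10.88 on the other 4 WASP-deficient arrays, with a gap of 0.731 of the range. The same array was the single Cd2-high one of its genotype, with Cd2 at 11.52 (0.854 of the range) and Cd3d at 6.47 (0.764). WASP-intact array 3 stood apart in Xist, at 4.40 (0.950 of the range), and in Kdm5d, a Y-linked histone demethylase gene, at 8.68 (0.779). None of Myc, Mycn, Mxd1, Mxd3, Mxd4, Mnt and Mlx had such a value in either genotype.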

How the results depend on the processing

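None of the 8 network genes passed under any of the 21 alternatives (20 for Mycn, which the filter at the 60th percentile removed), with limma adjusted p of at least 0.659. Max and Mnt kept their direction under all 21. With array weights Mycn turned to 0.01, Mxd3 to 0.06 and Mxd4 to -0.08, with the Cd2 set as covariate Mxd4 to -0.01, with the Xist covariate Mxd1 to -0.06, and on Cd2-low arrays alone Mlx to -0.00321. With 1 array left out at a time, Myc ranged from -0.09 to 0.08, Mxd3 from -0.18 to 0.05 and Mlx from -0.00415 to 0.08. The cause was not tested. The 1 gene called over all became 0 with the replicate block and with the Xist covariate, 2 on Cd2-low arrays alone and 1 to 4 with 1 array left out. It was 2 without WASP-deficient array 1 and 4 without WASP-intact array 3. The replicate numbers did not pair the arrays (r of deviations from -0.71 to 0.37 over the 5 pairs, 1 of 5 closest to its own number). With the block, Was was at -1.14 (limma adjusted p = 0.136) and Myc at -0.02. With the Xist covariate Was was at -1.06 (limma adjusted p = 0.376). Max, Mxd1 and Mxd4 stayed without overlap between the Cd2 sets under all 17 alternatives tried, but most of these could not have made them overlap. Leaving out an array, a filter, a pseudocount, the other Cd2 levels and the mean over 1 probe set all keep the order of the arrays. Only rescaling to equal medians could have changed that order. The differences of medians moved by less than the SD of the Cd2-low arrays. Groups of 5 leave wide intervals, so a gene that did not pass is not shown to be unchanged.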

Other observations

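WASP-deficient array 4, a Cd2-low array, stood at an end of several network genes, and so did other arrays. Of the 10 arrays it had the lowest Myc level, 11.17, the lowest Mnt level, 7.73, and the highest Max level, 10.88. It also had the highest scores of repressed MYC targets, 0.35, and of MLX targets, 0.37, the latter against -0.29 to 0.18 on the other 9. Its induced target score, -0.03, lay within the range of the rest, as did its G2 and M phase score, -0.12. Marker scores were at an end on it as well, the lowest of the 10 arrays for fibroblasts, -0.71, adipocytes, -0.48, and immature thymocytes, -0.41, and the highest for erythroid cells, 0.44, and their part in these levels was not tested. Mxd4 and Mycn were inside their ranges on this array, at 9.79 and 6.99. WASP-deficient array 5, also Cd2-low, had the highest Mycn, 7.20, Mxd1, 9.43, and Mxd4, 10.09, and the lowest Mxd3, 7.72. WASP-deficient array 1 had the lowest Max, 10.33, and Mxd4, 9.01, and the highest Mxd3, 8.67. Standing at an end of several network genes was therefore not particular to array 4. Each array is 1 tumour, with no replicate of that tumour.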
